A study of Mus musculus with 4 samples.

Results

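The nuclear genes of oxidative phosphorylation were followed across 8 cell types of the inflamed mouse spinal cord. All genes whose symbol begins with Nduf, Uqcr, Cox4 to Cox8 or Atp5 were taken, together with Sdha to Sdhd, which gave 92 of the 27998 annotated genes. By their known roles, 36 encode subunits of complex I, 4 of complex II, 8 of complex III, 18 of complex IV and 15 of complex V. A further 10 are assembly factors or other genes caught by the name (Ndufaf1 to Ndufaf7, Atp5s, Atp5sl and Cox7a2l), and the last is Ndufa4l2, a paralog of the complex IV subunit Ndufa4. No member entered the choice of features for clustering or the marker lists that named the cell types. The 13 genes of the mitochondrial genome that carry the prefix mt- were set beside them.

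All mice had EAE, induced with MOG35-55 in CFA and pertussis toxin. The mIgG1 and Ang2 Ab groups (C57Bl/6JOlaHsd, 15 weeks old) received control mouse IgG1 or an angiopoietin-2 (Ang2) antibody for 2 weeks from induction. The transgenic groups (C57Bl/6JCrl, 12 to 14 weeks old) were EC-Ang2, in which VE-cadherin-tTA drives a Tet-OS-Ang2 transgene in endothelial cells (ECs) and doxycycline held it silent until birth, and Ctrl, mice with a single transgene. Each of the 4 conditions was 1 library in which sorted CD45+ leukocytes were mixed with as many CD31+ ECs, and the number of mice pooled in a library is not given in the sources used here. The single libraries allow no test between conditions. The pairs also differ in substrain, age, dose of pertussis toxin and day of sampling after immunization. By the paper's methods the transgenic groups received the lower dose and were sampled earlier.

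The respiratory chain passes electrons from NADH (complex I) and succinate (complex II) through complex III to oxygen at complex IV, and the proton gradient that the chain builds drives ATP synthesis by complex V. Complexes I, III, IV and V are each encoded partly by mitochondrial DNA, whereas complex II is nuclear throughout. Several small subunits of complex IV have isoforms that are known from heart and skeletal muscle, lung or testis, and Ndufa4, once placed in complex I, is now counted as a subunit of complex IV. Inflammatory macrophages are known for glycolysis and for a changed mitochondrial electron transport.

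A library held 52084739 to 66631583 unique molecular identifiers (UMIs), each standing for 1 captured transcript, and 5415 to 7488 barcodes with at least 2000 UMIs and under 10% mt- UMIs were kept as cells, with a median of 4845.5 to 6888 UMIs. Pairs of libraries shared 51 to 77 cell barcodes, where 48.7 to 71.0 would be shared by unrelated draws. Levels are given as counts per 1000000 UMIs (CPM): for each type and library, the UMIs of a gene were added up and divided by all UMIs of the same barcodes. This is a scale with no gene length in it because 3′ tags count molecules. Types were named from marker genes, and the ending -like that such names carry is left out here. Of the types compared, mural, dendritic and neutrophil cells were the scarcest when all libraries were added up. They held 63 to 125, 112 to 221 and 30 to 315 cells in a library, and 7.17% to 13.5% of cells stayed unnamed. Single libraries differed, and EC-Ang2 held 315 neutrophils and 121 microglia. With a minimum of 1000 UMIs, 175, 571, 490 and 672 neutrophils were named in mIgG1, Ang2 Ab, Ctrl and EC-Ang2. The neutrophil values below are for those with at least 2000 UMIs, unless another minimum is given.

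Barcodes of some types held marker transcripts of others. The 15 EC markers summed in mural barcodes to 59.8%, 56.7%, 60.4% and 63.4% of their EC level in mIgG1, Ang2 Ab, Ctrl and EC-Ang2, and mural cells reached the libraries through a CD31 gate. Free RNA, which enters every droplet from broken cells, was estimated at 3.16% to 11.1% of UMIs in types other than neutrophils. In neutrophils it was 36.7%, 26.6%, 14.4% and 5.67% in mIgG1, Ang2 Ab, Ctrl and EC-Ang2. Microglial barcodes of mIgG1 held macrophage markers at 22581 CPM and those of the other libraries at 4474 to 10320 CPM, where macrophages themselves held 25169 to 50109 CPM. The macrophage list includes Apoe, Fabp5 and Gpnmb, which the paper reports in microglia as well. Microglial expression and transcripts from other cells can therefore not be told apart in this sum. The part of these transcripts in the results below was not tested, except where a value without them is given.

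Of the 92 members, 89 had UMIs in the named cells, and Cox7b2, Cox8b and Cox8c had none. A further 6 (Atp5s, Cox6b2, Cox7a1, Ndufaf1, Ndufaf5 and Ndufaf6) had a mean under 10 CPM over the 8 types. Ndufs1, a core subunit of complex I that holds iron-sulfur clusters, was the lowest complex I gene in all 8 types, at 17.3 to 46.9 CPM by mean. Together the members stood at 20842 to 27483 CPM in every library of the types other than neutrophils, and at 10351 to 19629 CPM in neutrophils. Neutrophils held the lowest summed level of complexes I, II, III, IV and V, on average over the libraries. Complex I stood at 5959 CPM in mIgG1 neutrophils, 4649 CPM in those of Ang2 Ab, 2820 CPM in those of Ctrl and 2851 CPM in those of EC-Ang2, against 5781 to 8302 CPM in every library of the other types. The mIgG1 neutrophils, with 30 cells and the highest free RNA share, lay inside the range of the other types and the other 3 libraries lay below it. For 74 of the 89 members that could be tested, neutrophils had the lowest mean of the 8 types, and this held for 37.0% of all 10599 genes tested.

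**Figure D1:**
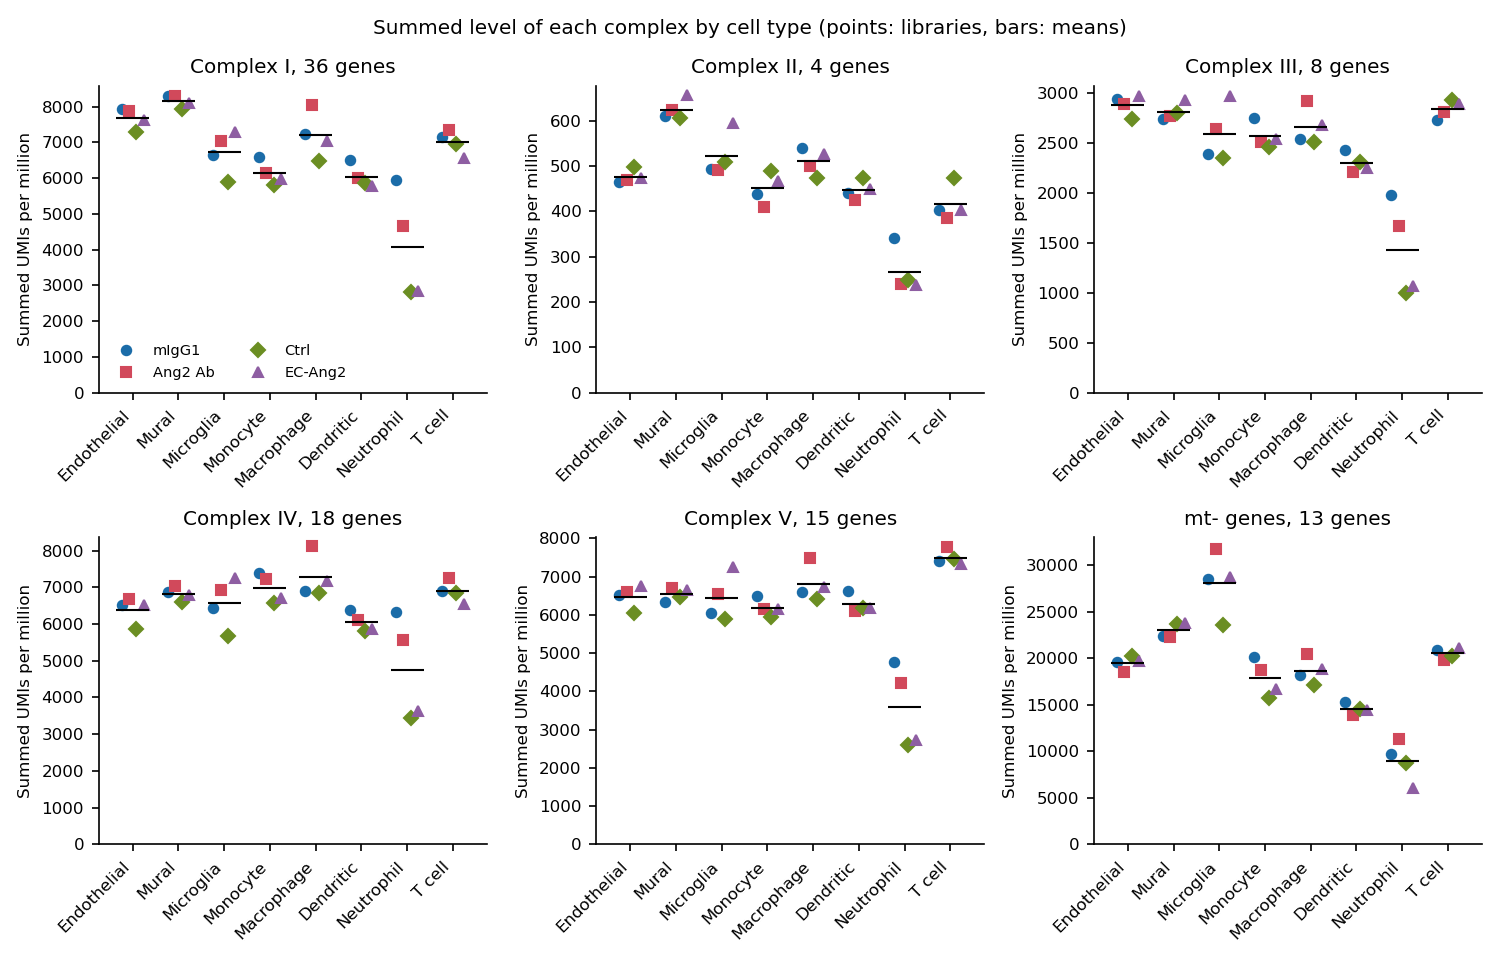
Summed CPM of the nuclear subunits of complexes I to V and of the mt- genes (vertical axes, from 0) in 8 cell types (horizontal axes), with 1 point for each of the 4 libraries and a bar at their mean. Neutrophils lie lowest in every panel by their mean, and microglia have the highest mt- level, between 23546 and 31682.

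Differences between cell types were tested with edgeR on the UMIs summed by type and library, with the library as a block and p-values adjusted by Benjamini-Hochberg over all 10599 genes. The 4 libraries are 4 conditions, so an effect of condition on a type counts as spread in these tests, and cells of all types within a library went through 1 preparation. In bulk sums of this kind, less RNA of a gene per cell and fewer cells that use the gene cannot be told apart.

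Macrophages served as the common reference for the other leukocytes and for ECs. Unnamed clusters led by Sirpb1c (1321 cells) and Nos2 (1127 cells), with nearly equal macrophage and monocyte scores, were not part of it. In Ctrl they held 69 and 268 cells, beside 126 named macrophages. In neutrophils 73 members were lower and 3 higher than in macrophages, where 27.9% of all genes were lower and 22.7% higher. Their median log2 fold change was −0.96, beside −0.16 for all genes. Of the 36 complex I genes 32 were lower, of the 8 complex III genes 8, and of the 15 complex V genes 14, but of the 15 complex IV genes tested only 9. Those 15 include the isoforms Cox4i2, Cox6a2 and Cox6b2, which stood at no more than 8.43 CPM in any macrophage library and left little room for a lower call. Atp5g1, one of 3 genes for subunit c of the ATP synthase rotor, was at 148, 148, 75.6 and 62.3 CPM in neutrophils of mIgG1, Ang2 Ab, Ctrl and EC-Ang2 and at 389.9, 529, 397 and 442 CPM in macrophages. The groups did not overlap, and the log2 fold change was −1.996 (SE 0.15, adjusted p = 2.5e-12). Cox8a, a small complex IV subunit, was at 651 to 1285 CPM in neutrophils and 1016 to 1210 CPM in macrophages, ranges that overlapped. The count of lower members was 68, 78 and 67 under median-ratio factors, scaling by total UMIs and DESeq2, and 66 members were lower under all 4 scalings.

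ECs had 56 members lower and 7 higher than macrophages, where 32.7% of all genes were lower and 40.6% higher. This split rested on the scaling: with total UMIs alone 21 were lower and 26 higher, because the median of all genes then moved from 0.14 to 0.59. The members' median lay 0.51 to 0.52 below that of all genes under each of the 4 scalings, and 21 members stayed lower and 7 higher under all of them. Lower in ECs by the main test were 13 of 15 complex IV genes and 13 of 15 complex V genes, among them Cox8a (545 to 669 CPM), with a log2 fold change of −1.24 (SE 0.10, adjusted p = 4.0e-13), and Atp5g1 (210 to 293 CPM), with −1.25 (SE 0.12, adjusted p = 1.5e-10). The 7 higher members were Ndufa4, Ndufaf7, Atp5s, Ndufb11, Ndufa7, Ndufaf4 and Ndufaf1, of which 4 belong to the factors. Ndufaf7, a methyltransferase that modifies a core subunit while complex I is assembled, was at 48.3, 61.8, 64.8 and 46.2 CPM in ECs and 7.23, 6.22, 11.1 and 5.07 CPM in macrophages, in the same order of libraries. The groups did not overlap, and the log2 fold change was 2.54 (SE 0.19, adjusted p = 4.1e-13).

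Microglia had 57 members lower and 3 higher (Cox6a2, Ndufa4 and Ndufaf7), where 20.6% of all genes were lower and 20.5% higher. With total UMIs alone the split was 16 to 12, and the members' median lay 0.38 to 0.39 below that of all genes under every scaling. The mt- genes went the other way, with 8 of 13 higher and 0 lower. The summed mt- level over the summed member level does not depend on scaling, and it was 1.26, 1.31, 1.13 and 1.11 in microglia of mIgG1, Ang2 Ab, Ctrl and EC-Ang2. In the other 7 types that ratio ran from 0.495 to 0.902, and macrophages kept within 0.739 to 0.765. As a type, microglia therefore did not overlap with any other, but 1 of their 4 clusters did not share this. In the cluster led by Ccl12, whose cells had a median of 2785 to 3354 UMIs, mt- genes summed to 23531, 34704, 25665 and 20598 CPM and members to 29351, 33551, 29765 and 32392 CPM, so that members exceeded mt- genes in 3 of 4 libraries. These member sums also lay above those of every macrophage library (23198 to 27483 CPM), and no contrast was run for this cluster alone. In the clusters led by Cst7, Top2a and P2ry12 mt- genes exceeded members in every library with enough cells. Over all microglia, their mt- UMIs (23546 to 31682 CPM) stayed far from the limit of 10% set on cells.

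Dendritic cells had 49 members lower and 6 higher than macrophages (22.5% and 18.9% of all genes), with 30 to 10 under total UMIs alone and 30 lower under all 4 scalings. Their mt- genes fell with the nuclear ones, 10 of 13 being lower and 0 higher. The ratio of mt- to member UMIs was 0.652 to 0.686, below that of macrophages in every library. Uqcrc2, a core protein of complex III, and Atp5b, the catalytic beta subunit of complex V, were among the 6 higher members, with log2 fold changes of 0.41 (SE 0.12, adjusted p = 0.0054) and 0.24 (SE 0.09, adjusted p = 0.031).

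Monocytes had 25 members lower and 9 higher than macrophages (17.2% and 15.6% of all genes). Their median of −0.15 lay close to that of all genes (−0.05). The assembly factors Ndufaf2 and Ndufaf4 and the peripheral complex I subunit Ndufa5 were among the lower ones. Ndufa5 was at 70.1, 83.7, 74.2 and 84.7 CPM in monocytes and 151, 183, 140 and 145 CPM in macrophages, groups that did not overlap, with a log2 fold change of −0.93 (SE 0.13, adjusted p = 1.3e-06). Without the Ang2 Ab library 14 members passed in place of 34. Without that library the counts for microglia and dendritic cells fell from 60 to 38 and from 55 to 31.

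T cells had 38 members lower and 7 higher than macrophages (30.2% and 26.9% of all genes), and 20 lower to 22 higher with total UMIs alone. Uqcrh, the hinge protein of complex III, was at 958, 816.7, 890.4 and 991 CPM in T cells of mIgG1, Ang2 Ab, Ctrl and EC-Ang2. Among the 8 types, the highest library outside T cells was mIgG1 monocytes, at 689.6 CPM. The log2 fold change against macrophages (436 to 481 CPM) was 0.74 (SE 0.10, adjusted p = 2.6e-07). A cluster named as natural killer (NK) cells, with 159 cells, was not among the 8 types. It held Uqcrh at 1121, 798, 978 and 980 CPM in the same order of libraries, so the high level was not particular to T cells. Atp5d, the delta subunit of complex V, was at 548 to 627 CPM in T cells and at most 439 CPM in the rest of the 8 types. Its log2 fold change was 0.52 (SE 0.10, adjusted p = 3.9e-05). The membrane anchors of complex II moved the other way. Sdhc stood at 44.4 to 61.1 CPM in T cells and 74.6 to 94.5 CPM in macrophages (log2 fold change −1.02, SE 0.13, adjusted p = 3.1e-08), and Sdhd at 55.0 to 80.5 against 112 to 136 CPM (−1.16, SE 0.12, adjusted p = 4.5e-10). Sdha, which carries the flavin, was at 98.8 to 129 CPM in T cells and 80.1 to 92.6 CPM in macrophages, groups that did not overlap on this scale, but its log2 fold change of 0.04 did not pass (adjusted p = 0.87). In T cells 5 of the 89 tested members were highest without overlap with any other of the 8 types (Uqcrh, Atp5d, Atp5g3, Atp5h and Cox5a). This share was near the 5.66% of all genes, and NK cells were not part of the count. ECs held 3 such members (Ndufa4, Ndufa8 and Atp5j), again near the background of 3.35%.

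**Figure D2:**
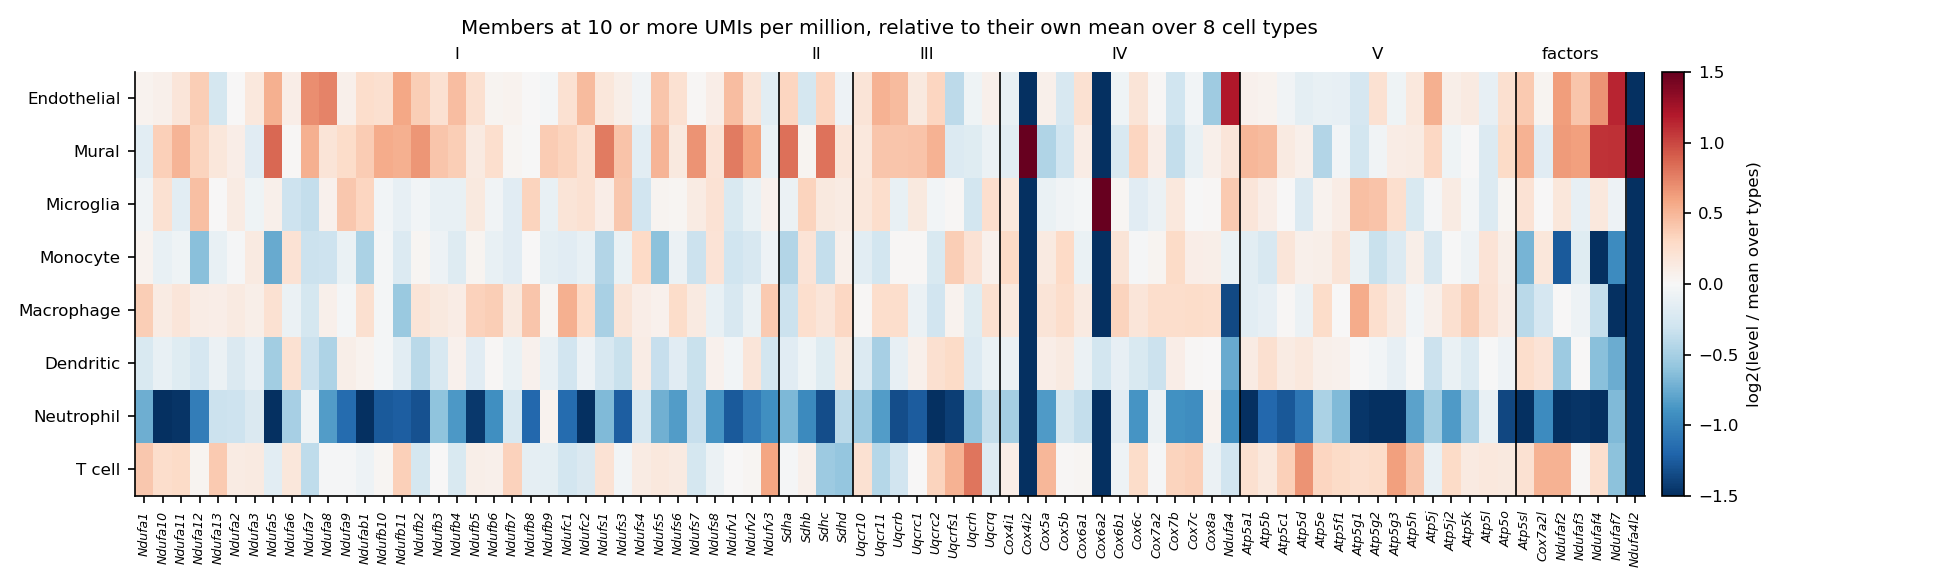
Heat map of 82 members with a mean of 10 or more CPM (columns, in blocks by complex, with factors and Ndufa4l2 at the right) in 8 cell types (rows), coloured by the log2 of each mean over 4 libraries against the mean of that member over the types, with colours ending at 1.5 in either direction. The neutrophil row is blue across most of the 82 columns, and Cox4i2, Cox6a2 and Ndufa4l2 each stand out in 1 row.

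Mural cells, the pericytes and smooth muscle cells that wrap vessels, carried the most distinct set of isoforms. Ndufa4l2, a paralog of Ndufa4 that is known as a hypoxia-induced gene (chr10:127514967-127517154, + strand, GRCm38.p6), was at 1302, 1123, 1145 and 1201 CPM in mural cells of mIgG1, Ang2 Ab, Ctrl and EC-Ang2. In ECs it was at 8.51, 7.96, 8.57 and 4.00 CPM, and no library of the other 6 types exceeded 6.96 CPM. Every mural library lay far above every other library, and the log2 fold change against ECs was 7.15 (SE 0.28, adjusted p = 9.6e-20). After each cell was thinned to 2000 UMIs, Ndufa4l2 was found in 90%, 83.2%, 87.4% and 92.1% of mural cells and in 1.14% to 1.78% of ECs. The gene overlaps Shmt2 on the other strand, and the strand setting of the counting is not given in the sources used here. Shmt2 itself had 13.8 to 35.3 CPM in mural cells.

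Cox4i2, the isoform of complex IV subunit 4 known from lung and from oxygen sensing (chr2:152754173-152765037, + strand), showed the same distribution. It was at 668, 618, 608 and 599 CPM in mural cells and 4.34, 5.03, 4.59 and 1.73 CPM in ECs, and 9.86 CPM in Ang2 Ab neutrophils (3 UMIs) was the highest value elsewhere. The log2 fold change was 7.12 (SE 0.26, adjusted p = 1.7e-20). The ubiquitous isoform Cox4i1 stood at 816 to 993 CPM in mural cells and 824 to 999.3 CPM in ECs, ranges that overlapped almost completely. Cox4i2 therefore made up 38.4% to 43.8% of the Cox4 UMIs in mural barcodes and at most 1.22% in any library of another type. Mural barcodes also held EC markers at 56.7% to 63.4% of their EC level. The part of EC transcripts in the mural Cox4i1 level, and so in this share, was not tested. An unnamed cluster led by Rgs5 and Myl9, whose EC marker score was higher than its mural score, held Ndufa4l2 at 265 to 350.5 CPM and Cox4i2 at 129 to 161 CPM in the 3 libraries with enough cells.

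**Figure D3:**
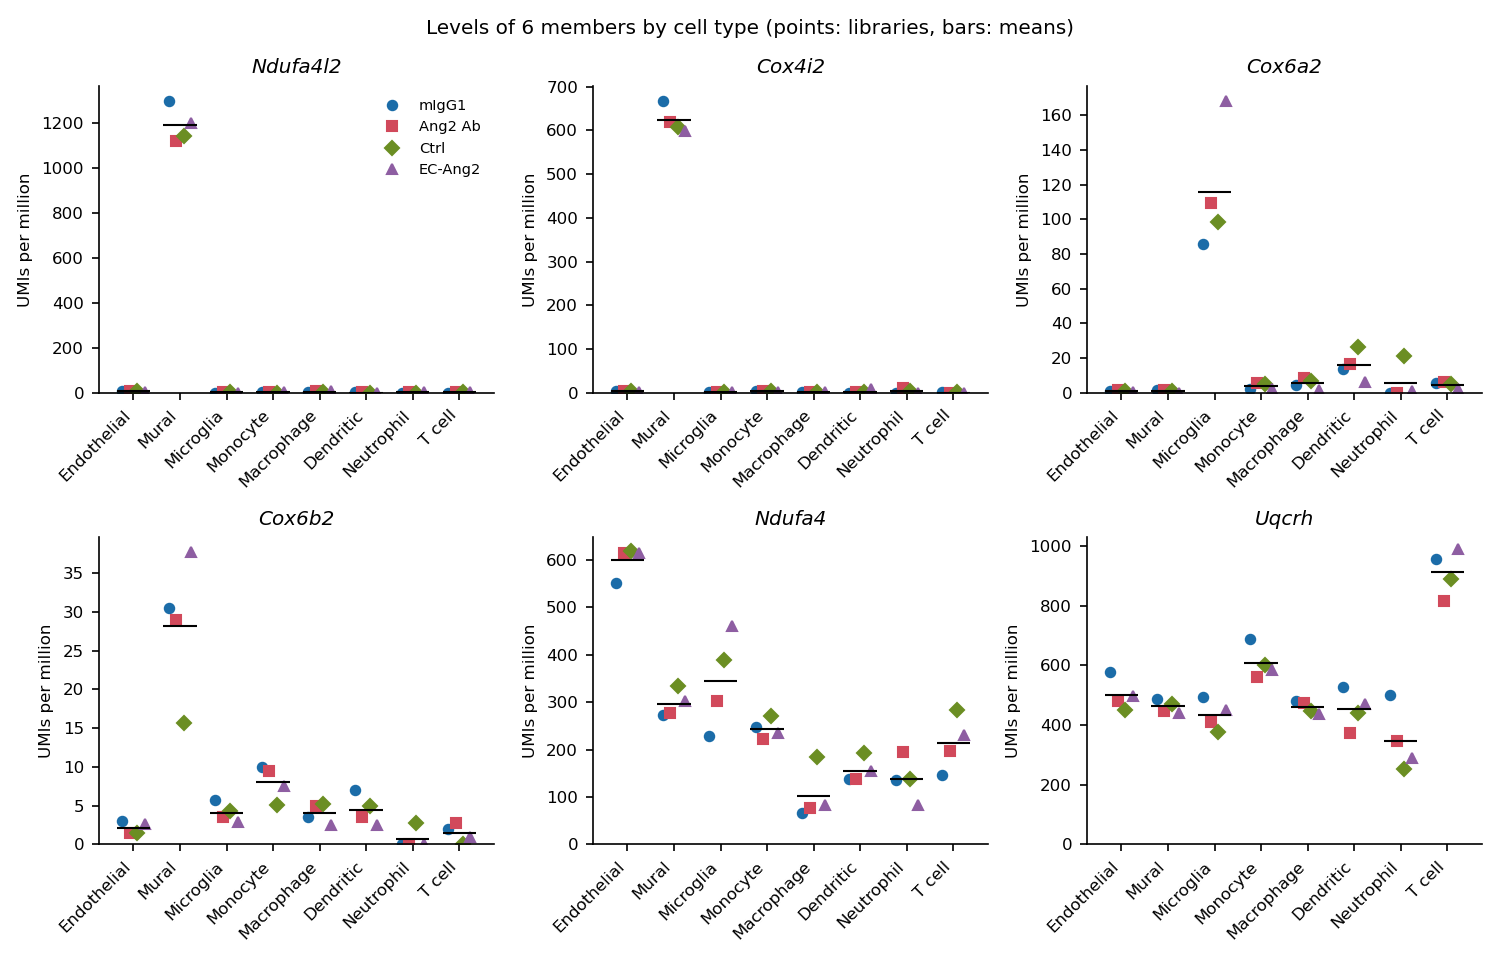
Level in CPM (vertical axes, from 0) of 6 members in 8 cell types (horizontal axes), with 1 point for each library and a bar at the mean of 4. Ndufa4l2 and Cox4i2 lie above 599 in mural cells and under 10 elsewhere, Cox6a2 is highest in microglia, and Ndufa4 is lowest in macrophages by its mean.

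Cox6b2, the testis isoform of a subunit at the dimer interface of complex IV, was the third. It was at 30.5, 28.9, 15.7 and 37.8 CPM in mural cells (12 to 21 UMIs a library) and 1.44 to 2.98 CPM in ECs, and mIgG1 monocytes had the highest value elsewhere, 10.01 CPM. The log2 fold change against ECs was 3.43 (SE 0.33, adjusted p = 5.7e-10), and the gene gave 2.76% to 6.78% of Cox6b UMIs in mural cells. Cox7a1, the heart and muscle isoform of subunit 7a, was spread wider, at 4.82, 26.2, 11.7 and 9.44 CPM in mural cells (3 to 19 UMIs) and 7.68 to 11.4 CPM in macrophages. Its mural libraries overlapped with those of ECs and macrophages, although the log2 fold change against ECs (1.00, SE 0.33) passed at an adjusted p of 0.024. The RefSeq windows from 250 bases before to 50 after the start (GRCm38.p6) are shown for Cox6b1, used by all types, and Cox6b2. They differ in 1 promoter motif, the ETS core, which 21.8% of the member windows hold. Whether this bears on the level of either gene was not tested. Capitals mark CTTCCGG, the ETS core CCGGAAG read on the other strand, which stands once in the first window and not in the second.
Cox6b1 (chr7:30626065-30626364, − strand): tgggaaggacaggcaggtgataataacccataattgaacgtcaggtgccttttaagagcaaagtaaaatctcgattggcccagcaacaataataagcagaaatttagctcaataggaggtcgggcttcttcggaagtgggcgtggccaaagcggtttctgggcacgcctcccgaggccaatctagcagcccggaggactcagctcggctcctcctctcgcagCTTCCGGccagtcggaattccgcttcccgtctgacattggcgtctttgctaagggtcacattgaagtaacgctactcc
Cox6b2 (chr7:4753045-4753344, − strand): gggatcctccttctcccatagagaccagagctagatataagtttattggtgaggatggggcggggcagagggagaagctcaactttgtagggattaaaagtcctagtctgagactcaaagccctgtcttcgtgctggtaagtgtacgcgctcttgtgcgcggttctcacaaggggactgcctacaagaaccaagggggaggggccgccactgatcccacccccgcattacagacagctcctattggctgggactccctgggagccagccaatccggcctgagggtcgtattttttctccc

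With Ndufa4l2, Cox4i2 and Cox6b2 counted in, 12 of the 89 tested members were highest in mural cells without overlap with any other type. Of all genes 8.62% were, so without those isoforms the share lay near the background. Apart from Ndufa4l2, Cox4i2 and Cox6b2 these included the complex I genes Ndufa5, Ndufb2, Ndufb10, Ndufs1, Ndufs7 and Ndufv1 and the complex II genes Sdha and Sdhc. Ndufs7, which holds the last iron-sulfur cluster of complex I, was at 254, 231, 234 and 219 CPM in mural cells and 138 to 154 CPM in ECs, with a log2 fold change of 0.43 (SE 0.11, adjusted p = 0.0045) that did not pass without the filter on low counts (0.35, adjusted p = 0.098). Over all members, 25 were lower and 7 higher in mural cells than in ECs (17.8% and 10.1% of all genes). This direction also rested on the scaling, with 6 lower and 15 higher under median-ratio factors, 4 and 16 under total UMIs alone, and 12 and 17 by DESeq2. The members' median lay 0.01 to 0.03 above that of all genes in each case, and 4 members were lower and the same 7 higher under all 4 scalings. The count of 32 fell to 15 without Ang2 Ab, to 21 without mIgG1 and to 20 without EC-Ang2. Ndufa4, at 273 to 334 CPM in mural cells, was among the lower members (log2 fold change −1.26, SE 0.17, adjusted p = 7.8e-07). The part of EC transcripts in this and the other mural levels was not tested.

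Cox6a2, the heart and skeletal muscle isoform of subunit 6a (chr7:128205435-128206387, − strand), was found in microglia at 86.0, 109.5, 98.5 and 168 CPM in mIgG1, Ang2 Ab, Ctrl and EC-Ang2. Dendritic cells (6.29 to 26.4 CPM) and Ctrl neutrophils (21.2 CPM, 23 UMIs) came next, and ECs and mural cells stood at 0 to 1.78 CPM, about the level that free RNA would give. All 4 microglial libraries lay above every other library, and the log2 fold change against macrophages was 4.17 (SE 0.33, adjusted p = 3.0e-11). It made up 14.9% to 22.7% of the Cox6a UMIs in microglia and at most 7.80% in any other named type. Among microglial clusters it ran from 58.3 to 76.0 CPM in the one led by Cst7, a gene known from activated microglia, and from 93.9 to 159 CPM in the one led by P2ry12, a gene of resting microglia, in the 3 libraries with enough cells. The cluster led by Ccl12 stood at 108, 228, 171 and 256 CPM in mIgG1, Ang2 Ab, Ctrl and EC-Ang2, above the other clusters in Ang2 Ab and Ctrl but below the one led by P2ry12 in mIgG1, and the one led by Top2a, a gene of dividing cells, had 63.3 to 132 CPM. The Cst7-led cluster was named microglia at a marker score of 0.347, near the limit of 0.33, and its macrophage score was 0.222. Its cells had a median of 3.02 times the median UMIs of their library. The part of macrophage transcripts in this cluster was not tested. Itgad, which overlaps Cox6a2 on the other strand, had 3 UMIs in microglia.

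The highest Cox6a2 level of all was in 81 cells of an unnamed cluster led by Ly6d, Ccr9 and Smim5, which was left out of the contrasts. There it stood at 1690.5 CPM (95% Poisson interval 1518 to 1878) in mIgG1, 1738 (1551 to 1941) for Ang2 Ab, 2040.3 (1629.7 to 2523) for Ctrl and 2180.2 (1785 to 2637) for EC-Ang2. These intervals cover counting error only. The gene was present in 37 of 38, 28 of 28, 6 of 6 and 9 of 9 cells, and gave 76.8%, 76.0%, 81.7% and 82.2% of the Cox6a UMIs. This was the only group of cells in which Cox6a2 outnumbered the common isoform Cox6a1, among the 8 named types and this cluster. Siglech, a lectin gene used as a marker of plasmacytoid dendritic cells and also present in microglia, stood at 916 to 1608 CPM in the same cells.

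Ndufa4 and AA467197, a paralog of Ndufa4 that is known to rise in inflamed cells and is also called NMES1, were distributed in nearly opposite ways. Ndufa4 was highest in ECs, at 552, 614, 620 and 615 CPM in mIgG1, Ang2 Ab, Ctrl and EC-Ang2, and no library of another type exceeded 461 CPM. Macrophages had the lowest mean, with 66.5, 75.9, 184 and 82.0 CPM, of which the Ctrl value stands apart. Microglia lay between at 228, 302, 389 and 461 CPM, followed by mural cells (273 to 334 CPM), monocytes (223 to 272 CPM), T cells (147 to 283 CPM), dendritic cells (137 to 192 CPM) and neutrophils (83.4 to 194 CPM). Neighbours in this order overlapped, except ECs and microglia, and mural cells and monocytes, which were separated by a narrow gap. Against macrophages the log2 fold change was 2.23 in ECs (SE 0.17, adjusted p = 5.3e-13), 1.53 in microglia (SE 0.17, adjusted p = 1.7e-08), 1.41 in monocytes (SE 0.17, adjusted p = 1.8e-07), 0.91 in T cells (SE 0.17, adjusted p = 3.7e-05) and 0.59 in dendritic cells (SE 0.18, adjusted p = 0.0071), and the last lost its call without mIgG1 (0.48) and without Ang2 Ab (0.54). In neutrophils it was 0.66 (SE 0.19, adjusted p = 0.0052) and did not pass once free RNA was subtracted (0.26), with total UMIs alone (0.41) or without Ang2 Ab (0.42).

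AA467197 (chr2:122636986-122641191, + strand), not itself a member, stood at 1322, 3241, 4704 and 4024 CPM in named macrophages. These values leave out the unnamed cluster led by Nos2 (1127 cells), whose leading genes include AA467197. They are therefore not the level of all macrophage-related cells. AA467197 was at 1619 to 3590 CPM in monocytes, 1604 to 2656 CPM in neutrophils, 1420 to 2753 CPM in dendritic cells, 489 to 1121 CPM in T cells and 622 to 1040 CPM in microglia. ECs had 66.6, 100, 71.0 and 229 CPM and mural cells 44.9, 84.0, 60.0 and 130 CPM, where free RNA alone would give 39.1 to 67.9 CPM in both. Of the UMIs of both genes together, Ndufa4 made up 72.9% to 89.7% in ECs and 2.00% to 4.79% in macrophages. The 2 genes are counted apart, and the record of Mir147 lies within AA467197 on the same strand. Among microglial clusters the one led by Cst7 had 797 to 1841 CPM of AA467197 and 193 to 332 CPM of Ndufa4, and the one led by P2ry12 had 67.5 to 150 CPM and 307 to 356 CPM. The one led by Ccl12 had 78.0 to 128 CPM and 483 to 655 CPM, and the one led by Top2a had 368 to 1156 CPM and 290.4 to 383 CPM. The part of macrophage transcripts in the Cst7-led cluster, whose microglial score was near the naming limit, was not tested. Neither RefSeq window of these genes (GRCm38.p6) holds any of the 4 motifs searched, and they are printed to show the pair side by side. The AA467197 window follows a RefSeq start that lies inside the gene span given above. The bases before the start of that span were not searched.
Ndufa4 (chr6:11907401-11907700, − strand): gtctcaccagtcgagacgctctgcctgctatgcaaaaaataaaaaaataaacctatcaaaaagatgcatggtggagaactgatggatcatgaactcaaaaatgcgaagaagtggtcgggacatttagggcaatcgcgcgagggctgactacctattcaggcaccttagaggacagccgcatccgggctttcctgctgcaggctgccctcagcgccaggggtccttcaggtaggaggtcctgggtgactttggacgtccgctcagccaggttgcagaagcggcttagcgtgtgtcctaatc
AA467197 (chr2:122637637-122637936, + strand): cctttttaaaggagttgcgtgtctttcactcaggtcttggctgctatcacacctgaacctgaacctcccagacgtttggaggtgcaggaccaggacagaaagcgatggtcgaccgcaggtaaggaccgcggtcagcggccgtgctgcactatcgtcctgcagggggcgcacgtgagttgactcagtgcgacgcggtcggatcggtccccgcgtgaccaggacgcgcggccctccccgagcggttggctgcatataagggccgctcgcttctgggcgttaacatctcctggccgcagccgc

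**Figure D4:**
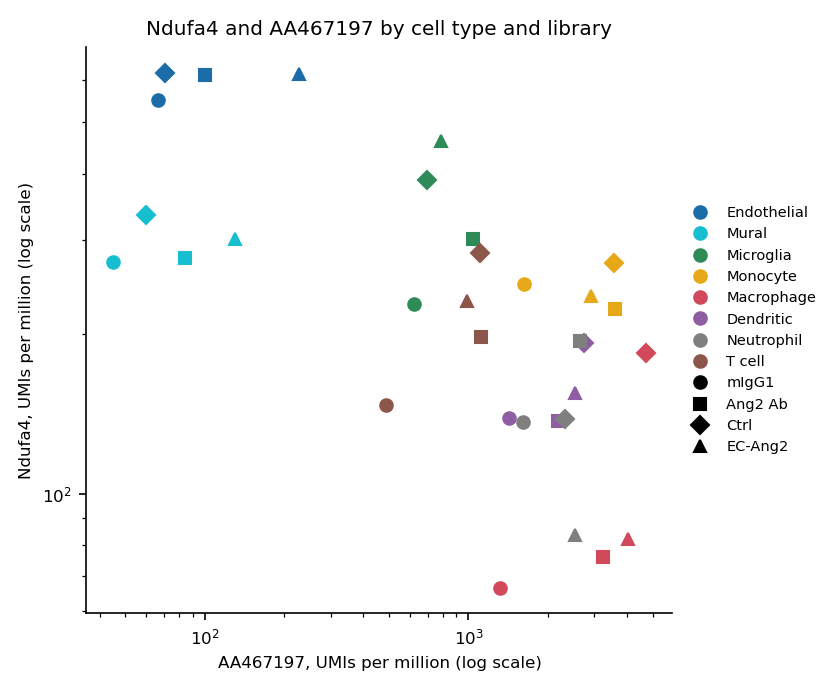
Ndufa4 against AA467197 in CPM, both on log scales, with 1 point for each cell type (colour) and library (shape). ECs lie at the upper left, with Ndufa4 at 552 to 620, and named macrophages, without the unnamed cluster led by Nos2, at the lower right, with AA467197 at 1322 to 4704.

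Promoter windows were found for 73 of the 92 members (78 windows) in the RefSeq table and searched on both strands, without overlap between the motifs being removed. GCATGCGC, the core of the site of nuclear respiratory factor 1, was present in 15.4% of the member windows and 2.71% of all 32851 windows. CCGGAAG, the ETS core that GABPA recognises, was present in 21.8% and 8.86%, AAGATGGC, a YY1 site, in 11.5% and 2.75%, and TGACCTT, which estrogen-related receptors bind, in 10.3% and 4.72%. These are counts of letters and not of bound sites. Among the types compared, Uqcrh had its highest mean in T cells. The window of Uqcrh is shown with its match in capitals (CTTCCGG, the ETS core on the other strand).
Uqcrh (chr4:116075021-116075320, − strand): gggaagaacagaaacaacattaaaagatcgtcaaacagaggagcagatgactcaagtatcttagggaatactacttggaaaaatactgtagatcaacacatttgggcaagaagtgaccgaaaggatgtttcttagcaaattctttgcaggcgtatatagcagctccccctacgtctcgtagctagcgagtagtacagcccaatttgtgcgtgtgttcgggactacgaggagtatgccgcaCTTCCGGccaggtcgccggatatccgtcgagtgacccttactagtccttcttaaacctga

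Patterns over the 8 type means were also compared between genes, among the 4905 other genes that reached 50 CPM in a type. Genes most like Ndufa4l2 on the log2 scale were Gpc6, Il34 and Rarres2 (Pearson r 0.992, 0.9916 and 0.9899), and those most like Cox4i2 were Sod3, Arhgef17 and Enpep (0.9895, 0.987 and 0.986). For Cox6a2 they were Bmp2k, Siglech and Bin1 (0.940, 0.935 and 0.934), and for Ndufa4 they were Dnm2, Erf and Srgap2 (0.913, 0.897 and 0.887). The 8 points of each come from the same 4 libraries, so these values are descriptions of likeness.

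Other pathways were counted in the same tests from fixed lists, to be read against the shares of all genes that were lower (32.7% in ECs, 20.6% in microglia, 17.2% in monocytes, 22.5% in dendritic cells, 27.9% in neutrophils and 30.2% in T cells against macrophages, and 17.8% in mural cells against ECs) or higher (22.7% in neutrophils, 26.9% in T cells and 40.6% in ECs). Glycolysis genes were lower than in macrophages for 15 of 20 in ECs, 16 of 20 in microglia, 16 of 20 in dendritic cells and 13 of 20 in T cells, but for 8 of 20 in neutrophils and 4 of 20 in monocytes. Of 13 genes of the TCA cycle, which feeds NADH and succinate to the chain, 9 were lower in neutrophils and 0 higher, whereas 5 were higher and 2 lower in T cells. Mitochondrial ribosome genes, needed to translate the mt- transcripts, were lower for 14 of 20 in neutrophils, 15 in ECs and 13 in T cells. Of 29 assembly factors tested outside the name rule, 12 were lower and 4 higher in neutrophils, and 9 were higher and 5 lower in ECs, where both counts are smaller shares than those of all genes. Of 8 genes of mitochondrial biogenesis tested, 4 were lower in neutrophils and 0 were higher. Hypoxia response genes were lower for 7 of 12 in ECs, 8 in microglia, 9 in dendritic cells and 8 in T cells, and in mural cells 3 of 12 were lower and 0 higher than in ECs. The gene for subunit c that gave most of its UMIs also differed between types. Atp5g1 was 39.5% to 46.0% of Atp5g UMIs in macrophages and 29.0% to 32.7% in ECs, where Atp5g2 gave 47.4% to 51.3%. The pathway counts share the scaling limits given for the members.

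Few members differed by much between the libraries of a pair. Ratios were taken for members with enough UMIs in a type, and past 1.5-fold was used as a rule of size because 1 library a condition gives no test. For Ang2 Ab against mIgG1, 3 of 593 combinations of member and type were past 1.5-fold higher and 8 lower, where 9.08% of all genes were past it in either direction. For EC-Ang2 against Ctrl it was 5 higher and 10 lower of 619, beside 14.3%. By type, members past the size in the first pair were 0 of 79 in ECs (2.86% of all genes), 3 of 81 in mural cells (11.1%), 0 of 82 in microglia (8.72%), 1 of 75 in monocytes (13%), 1 of 78 in macrophages (5.71%), 0 of 77 in dendritic cells (11.7%), 5 of 42 in neutrophils (23.8%) and 1 of 79 in T cells (10.4%). In the second pair they were 0 of 80 in ECs (11.4%), 1 of 81 in mural cells (15.6%), 3 of 83 in microglia (19.1%), 0 of 77 in monocytes (6.86%), 1 of 78 in macrophages (17.5%), 0 of 75 in dendritic cells (11.3%), 9 of 67 in neutrophils (25.7%) and 1 of 78 in T cells (10.6%). In each of the 8 types and both pairs the share of members lay below that of all genes, and the 2 sets were not matched for their level.

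The level summed over all members shifted by less than the size rule in each type. The lowest ratio was that of neutrophils in Ang2 Ab against mIgG1, 16613 and 19629 CPM or 0.846 (95% interval for counting error alone 0.801 to 0.894), with 31 of 42 members below 1, and the free RNA share of these libraries was 26.6% and 36.7%. In the same pair the ratio was 0.927 (0.913 to 0.942) in dendritic cells, 0.939 (0.924 to 0.954) in monocytes, 1.07 in microglia and 1.03 in T cells. The highest ratio was in microglia of the transgenic pair. Summed over the 92 members, microglia of EC-Ang2 had 25899 CPM and those of Ctrl 20842 CPM, a ratio of 1.24 (1.23 to 1.26). Of 83 members 80 were above 1, with a median log2 ratio of 0.29 beside −0.05 for all genes, and the mt- genes had a ratio of 1.22. The clusters that made up the microglia differed between these libraries: the one led by P2ry12 held 487 of the Ctrl cells and 24 of the EC-Ang2 cells, and in the cluster led by Ccl12, the one with enough cells in both, the ratio was 1.09. Macrophages of Ang2 Ab had 27483 CPM against 24335 CPM in mIgG1, a ratio of 1.13 (1.12 to 1.14). Within the 3 macrophage clusters it was 1.16, 1.07 and 1.07. Members summed to 25131 and 25070 CPM in ECs of Ang2 Ab and mIgG1 (ratio 1.00) and to 24938 and 23058 CPM in EC-Ang2 and Ctrl (1.08), and within single EC clusters the ratio lay between 0.919 and 1.11.

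**Figure D5:**
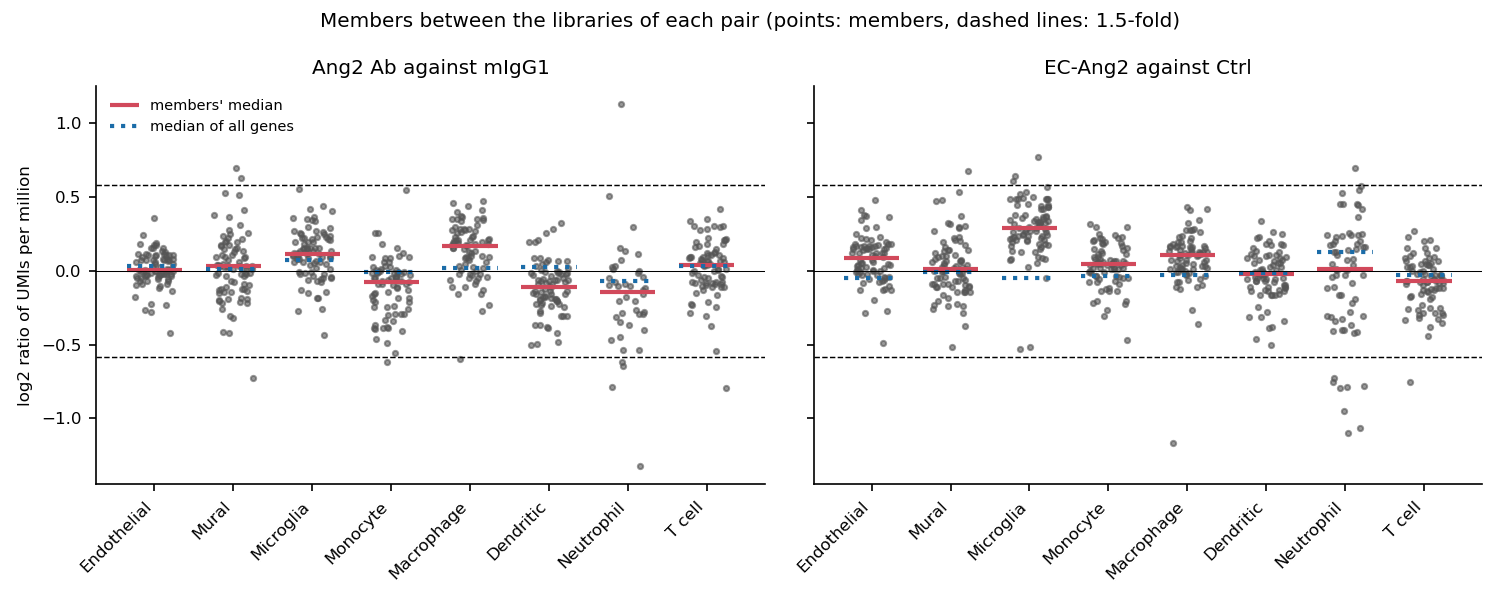
Log2 ratio of CPM between the libraries of each pair for every member counted (points) in 8 cell types, with the members' median as a solid bar, the median of all genes as a dotted bar and dashed lines at 1.5-fold. Most points lie between the dashed lines, and EC-Ang2 microglia have the highest member median, 0.29.

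Single members past the size were few. Ndufa4 in macrophages stood at 82.0 CPM in EC-Ang2 and 184 CPM in Ctrl, a ratio of 0.445 (0.380 to 0.523). Of the Ctrl cells, 54 belonged to the cluster led by Ms4a7 and held 320.3 CPM, where the same cluster had 75.5 to 108 CPM in the other libraries, and the cluster led by Ccl24 had 95.0 CPM in Ctrl. Cox6a2 in microglia was at 168 CPM in EC-Ang2 and 98.5 CPM in Ctrl, a ratio of 1.71 (1.48 to 1.97), and within the cluster led by Ccl12 it was 256 and 171 CPM. Cox7a2l, which helps complexes III and IV to assemble into supercomplexes, was lower in Ang2 Ab than in mIgG1 in 7 of 8 types. It was at 268 and 405 CPM in macrophages, a ratio of 0.662 (0.632 to 0.693), and 358 and 479.5 CPM in ECs, a ratio of 0.747 (0.722 to 0.772). Empty droplets of the same libraries held it at 456 and 525 CPM. Of the 42 members with enough UMIs in all 8 types of that pair, Uqcrh, Ndufa6 and Atp5c1 were lower and Uqcrq was higher in Ang2 Ab in every type. In the transgenic pair 0 of 71 were lower in every type and Atp5h, Ndufb9 and Ndufs6 were higher. The same count over all genes was not made, and the types of a pair come from the same libraries. Whether these counts are unusual can therefore not be judged. In neutrophils the lowest ratios were Atp5c1 in Ang2 Ab (29 against 21 UMIs, 0.399, 0.220 to 0.736) and Ndufc2 in EC-Ang2 (24 against 62 UMIs, 0.467, 0.279 to 0.759). Those values rest on few cells, and the free RNA share differed between the libraries of both pairs.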

How the data were processed

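Single-cell RNA was measured by 10x Chromium 3′ v2 in 4 libraries of sorted leukocytes and ECs. The authors made the deposited count matrices, raw UMI counts per gene and barcode, with Cell Ranger 2.1.1 on mm10, and the submitters' processing notes also name Seurat 2.3.4. Whether counting used strand is not given in the sources used here, and members with near-identical pseudogene copies may have lost or gained reads.

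Barcodes with at least 2000 UMIs and under 10% mt- UMIs were kept, and 235 to 449 expected doublets per library were removed. Cells were clustered with scanpy 1.11.5 (2000 variable genes without members, mt- and ribosomal protein genes, 30 components, 15 neighbours, resolution 1.5) into 32 clusters, which were named from fixed markers by thresholds set after the clusters had been seen. Unnamed cells made up 13.5%, 12.2%, 7.17% and 13.5% of mIgG1, Ang2 Ab, Ctrl and EC-Ang2. Sums by type and library (at least 10 cells) were compared with edgeR 4.0.16 (R 4.3.3, quasi-likelihood test, TMM, library block, Benjamini-Hochberg adjustment over all genes, threshold 0.05) and, as an alternative, DESeq2 1.42.0. The edgeR test was tried on simulated counts for mural cells against ECs, and DESeq2 was not. Pair ratios needed 30 cells in each library and carry exact 95% intervals. A gene had to meet 2 conditions at once: 50 UMIs summed over the pair, and detection in 10% of cells.

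Depth was 52084739 to 66631583 UMIs per library, and intervals cover counting error only. Members and lists were chosen with earlier results of these data known. Members were named if they belong to an isoform set or complex II, had one of the 5 highest or lowest fold changes of a contrast, the highest or lowest level of a complex, or one of the 3 highest or lowest ratios of a pair. Atp5b, Atp5d and the members listed for not overlapping were chosen after their values were seen. Values of 1 member are not reported here.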

Additional observations from a re-analysis of the deposited data

Results flagged for a closer look

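In 5 of 70 groups of 4 libraries, 1 library stood apart from the others by Dixon's criterion, and chance gives about 1 in 20. Summed complex II was 595.5 CPM in EC-Ang2 microglia and 491.1 to 508.8 CPM in the other libraries. It was 341.2 CPM in mIgG1 neutrophils, the library of 30 such cells, and 237.9 to 248 CPM in the others. Summed complex V was 6623 CPM in mIgG1 dendritic cells and 6113 to 6182 CPM in the others. Ndufa4 was 551.5 CPM in mIgG1 ECs and 614.1 to 620 CPM in the others. In macrophages Ndufa4 was 184.3 CPM in Ctrl and 66.5 to 82 CPM in the others. Cox6a2 stood at 1690 CPM or more in every library of the unnamed cluster led by Ly6d and Ccr9, which entered no comparison. The causes were not tested.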

How the results depend on the processing

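Among the values of single named genes none changed direction under the alternatives run. The median log2 fold change over the members did turn with total UMIs only, from −0.38 to 0.07 in ECs against macrophages, from −0.22 to 0.03 in T cells and from −0.15 to 0.08 in mural cells against ECs, and in mural cells also with median-ratio factors (0.03) and DESeq2 (0.02). In all, 117 counts stayed within 1.5 times their value while 24 moved further. Of the values of named genes, 1068 kept their side of the threshold and 37 lost their call. No paired analysis was possible because each condition has 1 library. The 32 members passing between mural cells and ECs became 21 with median-ratio factors, 20 with total UMIs only and 19 with free RNA subtracted. The 60 of microglia became 28 with total UMIs only. The 34 of monocytes became 53 with DESeq2, 22 with no filter on low counts, 20 with each library clustered by itself and 19 with a minimum of 1000 UMIs. Leaving out 1 library gave 15 to 33 members for mural cells, 49 to 63 for ECs, 38 to 55 for microglia, 14 to 29 for monocytes, 31 to 51 for dendritic cells, 68 to 74 for neutrophils and 36 to 47 for T cells. The lowest counts of mural cells, microglia, monocytes and dendritic cells were those without Ang2 Ab. The 11 members past 1.5-fold in Ang2 Ab against mIgG1 became 4 with each library clustered by itself, 7 without doublet removal, 6 without an mt- limit, 3 at 200 UMIs and 78 at a smaller size limit. The 15 in EC-Ang2 against Ctrl became 23 without doublet removal, 9 at a minimum of 1000 UMIs, 27 with free RNA subtracted, 5 at 200 UMIs and 99 at that smaller limit. Apart from the stricter and looser limits, and types that could not be counted with each library clustered by itself, the cause was not tested. Leaving out the Cst7-led microglial cluster was chosen after seeing the data. Clustered by itself, mIgG1 gave no named monocytes or neutrophils, and Ctrl no named monocytes or macrophages. These types were therefore missing from the counts of their pair under that setting.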
